A study of Homo sapiens with 12 samples.

Results

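Integrins are cell-surface receptors built from 1 alpha and 1 beta subunit that anchor cells to the extracellular matrix. The genes described here encode subunits of integrins that bind fibronectin or laminin, leaving aside the collagen-binding subunits. Members were the 10 listed genes ITGA3, ITGA4, ITGA5, ITGA6, ITGA7, ITGA8, ITGA9, ITGAV, ITGB3 and ITGB5. Each was given all accessible sites whose summit, the position of strongest signal, lay in the gene or within 10 kb of it (RefSeq, GRCh38.p14). This gave 75 of the 188019 summits in the deposited list, in 69 intervals. Accessibility was measured by ATAC-seq, in which a transposase cuts open chromatin. The cells were HT1080, an established human fibrosarcoma line, which migrated for 48 h in rat tail collagen at 0.3, 1 or 1.7 mg/mL. Each of the 3 concentrations had 4 libraries, and all 12 received the broad metalloproteinase inhibitor GM6001 at 20 µM, so no group was without the inhibitor. The deposited list pools the series and names no library, so the concentrations could not be compared here, the values have no replicates, and the depth per library is unknown.

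As background, an integrin's alpha subunit largely sets its ligand, and the cytoplasmic tail of the beta subunit links it to talin, kindlin and the actin cytoskeleton. ITGA5 pairs with ITGB1 as the classical fibronectin receptor, and ITGAV pairs with several beta subunits, ITGB3 and ITGB5 among them, to bind fibronectin, vitronectin and related ligands. ITGA3, ITGA6 and ITGA7 encode the main laminin-binding alpha subunits. Cells moving through collagen gels can deposit fibronectin and laminin of their own.

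A pair of values describes each site. The enrichment is the authors' ratio of the signal at a summit to the local background. The pileup is the number of overlapping sequenced fragments or reads there, recovered from the enrichment and p-value of each line. Which of these was counted is not stated in the sources used here. Intervals in brackets are exact Poisson 95% intervals of the pileup carried to the enrichment with the background held fixed. They cover counting error only, and PCR copies or reads of the same fragment are not independent. Over all 188019 summits the median enrichment was 4.27 and the median pileup 101. The genome-wide background, the lowest in the list, was 20.32. Markers fixed for the cell type gave 7 of 8 mesenchymal genes a summit within 1 kb of a gene end, 3 of 6 epithelial genes and 2 of 6 blood genes. Of all 20037 coding genes, 65.7% had one. The highest enrichment anywhere in the gene or flanks did not follow that order, with medians of 10.68 in the mesenchymal, 12.68 in the epithelial and 11.85 in the blood list. ESRP1, an epithelial splicing factor, had 0 summits, whereas the epithelial adhesion genes EPCAM and CDH1 reached 15.92 and 12.49 away from their ends. Near an end, the keratin gene KRT8 had 12.68 and the blood cell factor SPI1 had 8.44. KRT18, on the same chromosome as KRT8, had the same highest value of 12.68 and the same pileup of 763, but 1.75 near its own end. The epithelial median can therefore count 1 shared summit for both keratin genes. ITGB2, the beta subunit of leukocyte integrins, had a site at a gene end with an enrichment of 16.92; whether other cells contributed to any site was not tested. Fewer open copies and weaker opening in each cell cannot be told apart in pooled bulk data.

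All 10 genes carried at least 1 summit, as did 89.8% of coding genes, but their landscapes differed widely. ITGB5 had 19 summits, ITGA3 had 11, ITGA5 and ITGA9 had 9 each, ITGA6 and ITGB3 had 8 each and ITGA7 had 7. ITGAV had 2, and ITGA4 and ITGA8 had 1 each. Of the 75 summits, 54 lay inside a member gene and 21 in a flank. A summit lay within 1 kb of a gene end in 9 of the 10 genes, against 65.7% of coding genes; ITGA8 was the exception. The strongest summit lay within 1 kb of a gene end in 3 genes, ITGA3, ITGA4 and ITGAV, against 47.2% of coding genes with a summit. At an enrichment of at least 10, a level chosen after the values were seen, 7 genes had a summit, against 66.3% of coding genes with a summit. The 14 summits at that level made up 18.7% of the integrin summits. The share was 16.3% over the 112569 summits in intervals of at most 10 kb. Of the 14, 11 lay more than 1 kb from both ends of their member gene, and the like share over all summits is not given here. Those 11 include the ITGA7 summit of 10.82, within 1 kb of a start of RDH5. They also include the ITGB3 summit of 13.08, within 1 kb of an end of LOC107985029. The median enrichment was 4.11 for the 11 summits near gene ends and 4.79 for the other 64.

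**Figure D1:**
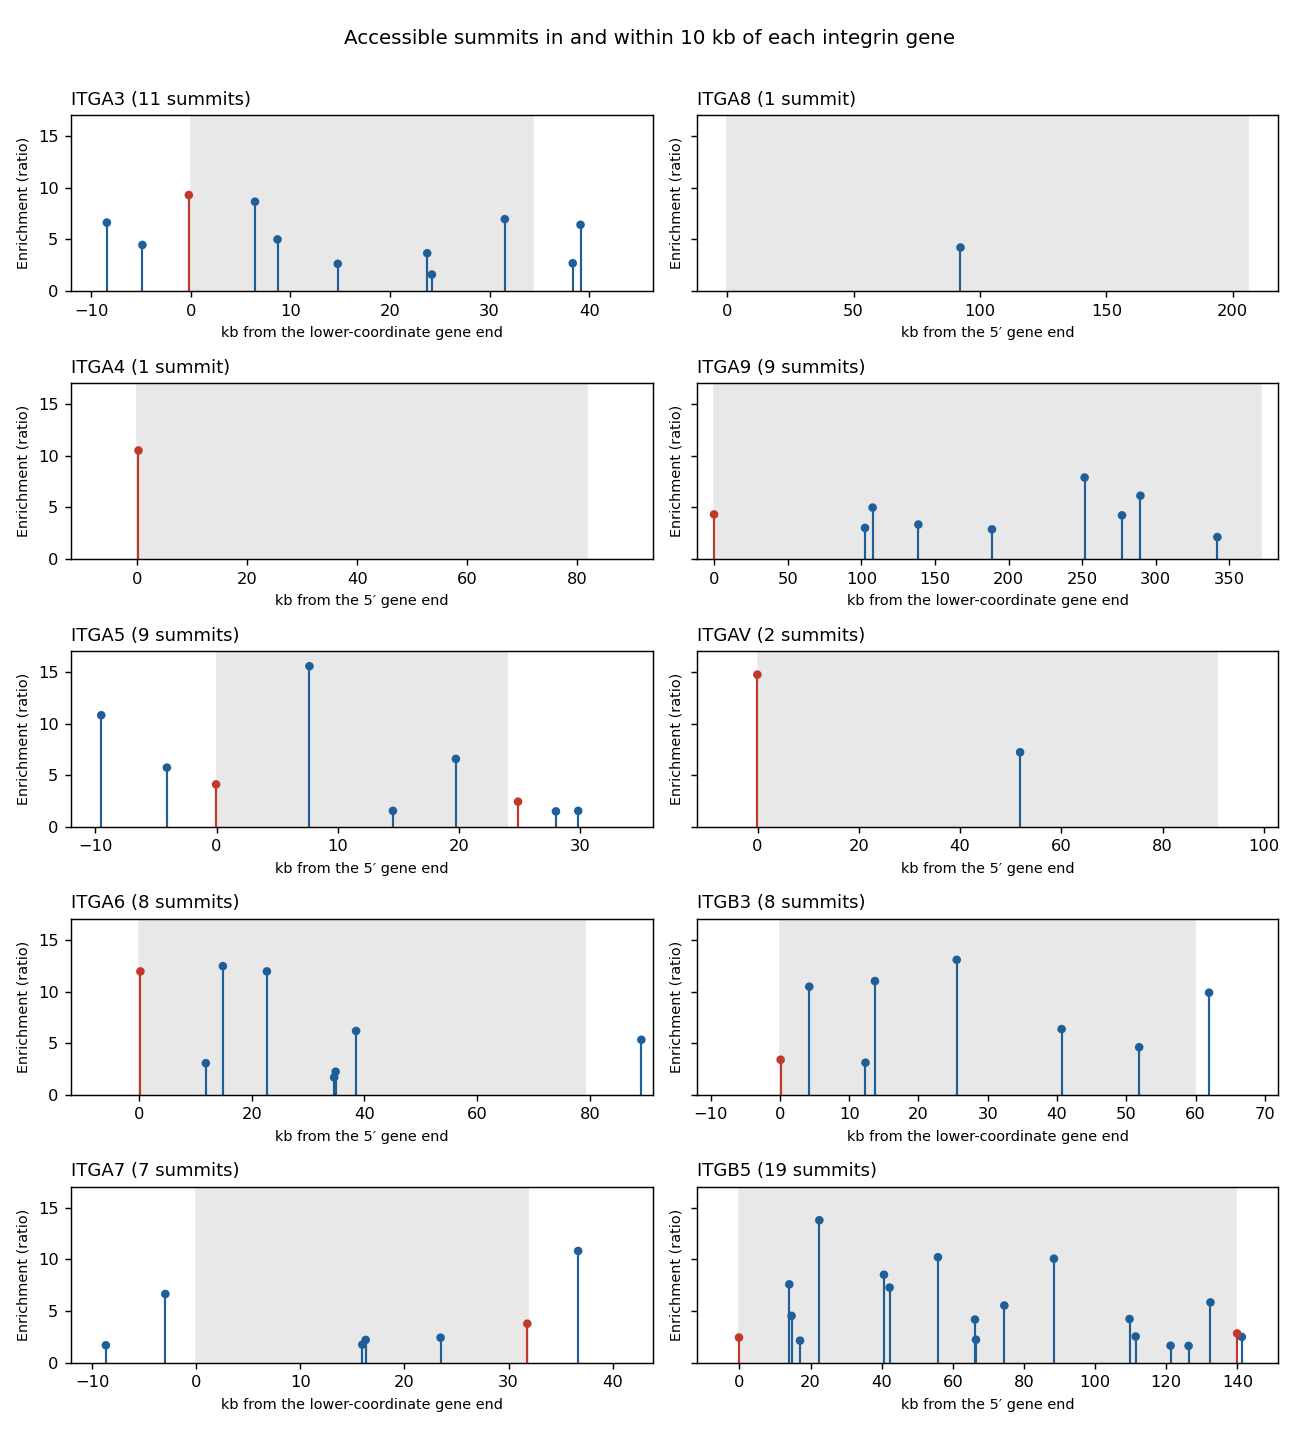
Each panel is 1 gene, with position in kb on the horizontal axis (from the 5′ gene end where the start is annotated, otherwise from the gene end with the lower coordinate) and enrichment on the vertical axis. The shaded span is the gene, red summits lie within 1 kb of a gene end and blue summits elsewhere; ITGB5 carries 19 summits along its length, whereas ITGA4 and ITGA8 carry 1 each.

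Ordered by its highest enrichment, the family ran from ITGA5 (15.56, interval 14.98 to 16.15) through ITGAV (14.74), ITGB5 (13.80), ITGB3 (13.08), ITGA6 (12.46), ITGA7 (10.82), ITGA4 (10.52), ITGA3 (9.29) and ITGA9 (7.88) to ITGA8 (4.27, 3.44 to 5.24). Most neighbours in this order had overlapping counting intervals. The steps from ITGA6 to ITGA7 and from ITGA9 to ITGA8 were the exceptions. The median of the 10 was 11.64, and that of coding genes with a summit was 12.37, with 5 of the 10 above it. ITGA5 stood above 80.6% of coding genes with a summit, ITGAV above 72.5% and ITGA8 above 9.0%.

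**Figure D2:**
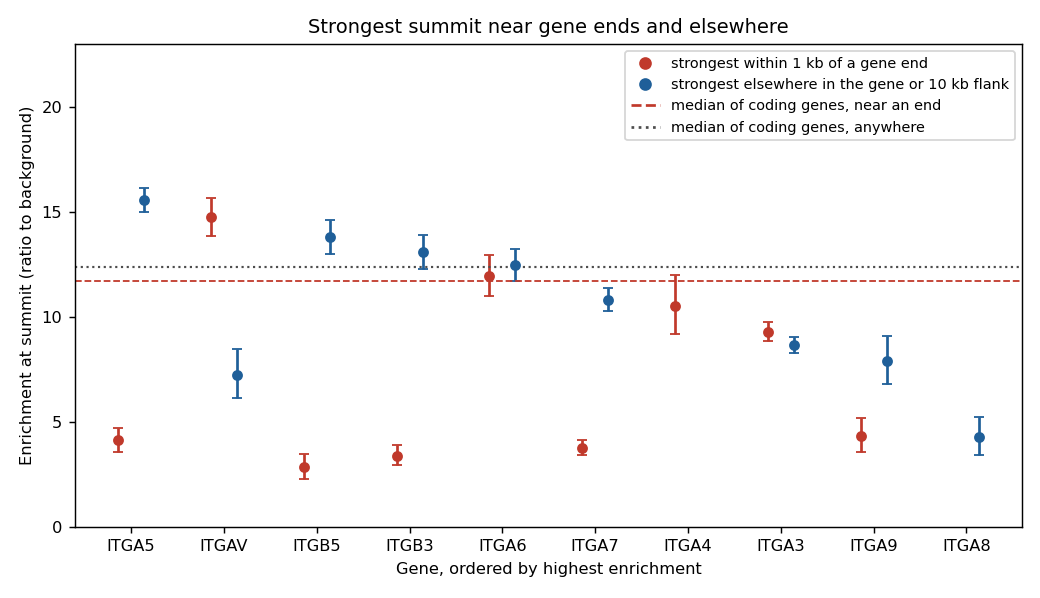
Points give, for each gene on the horizontal axis, the enrichment of the strongest summit within 1 kb of a gene end (red) and of the strongest summit elsewhere (blue), with 95% counting intervals; lines mark the medians of coding genes near an end (11.73, dashed) and anywhere (12.37, dotted). ITGA5, ITGB3, ITGB5 and ITGA7 have red points between 2.83 and 4.11 below blue points between 10.82 and 15.56. The red point of ITGB5, 2.83, is a summit near its 3′ end. The blue point of ITGA7, 10.82, lies outside the gene within 1 kb of a start of RDH5. Without summits shared with another coding gene, the highest ITGA7 value was 2.21.

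The starts of 6 of the genes are annotated in the RefSeq promoter table used here: ITGA4, ITGA5, ITGA6, ITGA8, ITGAV and ITGB5. For ITGA3, ITGA7, ITGA9 and ITGB3, sites are placed relative to gene ends. A summit lay within 1 kb of a start in 5 of the 6, all but ITGA8, against 67.7% of the 15843 coding genes in that table. The sequences below show starts with a strong summit (ITGAV, ITGA4), a moderate one (ITGA5), both a weak and a stronger one in 1 gene (ITGB5, outermost and inner start) and none (ITGA8). Each runs 5′ to 3′ on the strand of the gene from 250 bases before the start through the first 10 bases from it (RefSeq, GRCh38.p14). Capitals mark matches, on either strand, to TGACTCA or TGAGTCA (AP-1), GGGCGG or CCGCCC (GC box), CCGGAA or TTCCGG (ETS core), CACGTG (E-box) and GGAATG or CATTCC (TEAD).
ITGAV, chr2:186589806-186590065, plus strand: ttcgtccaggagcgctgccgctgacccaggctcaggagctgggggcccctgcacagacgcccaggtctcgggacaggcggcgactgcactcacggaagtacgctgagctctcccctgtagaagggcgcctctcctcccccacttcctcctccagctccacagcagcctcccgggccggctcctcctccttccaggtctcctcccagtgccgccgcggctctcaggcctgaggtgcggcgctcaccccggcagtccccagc
ITGA4, chr2:181457136-181457395, plus strand: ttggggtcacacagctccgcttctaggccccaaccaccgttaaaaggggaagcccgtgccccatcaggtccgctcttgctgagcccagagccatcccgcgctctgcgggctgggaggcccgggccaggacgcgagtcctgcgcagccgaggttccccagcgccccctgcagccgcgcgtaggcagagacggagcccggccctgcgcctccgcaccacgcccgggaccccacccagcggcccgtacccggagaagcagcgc
ITGA5, chr12:54419257-54419516, minus strand: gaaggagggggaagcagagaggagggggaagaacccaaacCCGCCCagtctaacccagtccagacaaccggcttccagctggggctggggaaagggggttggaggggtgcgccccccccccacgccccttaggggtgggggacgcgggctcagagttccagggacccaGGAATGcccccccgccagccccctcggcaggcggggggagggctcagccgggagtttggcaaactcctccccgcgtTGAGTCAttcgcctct
ITGB5 outermost start, chr3:124901409-124901668, minus strand: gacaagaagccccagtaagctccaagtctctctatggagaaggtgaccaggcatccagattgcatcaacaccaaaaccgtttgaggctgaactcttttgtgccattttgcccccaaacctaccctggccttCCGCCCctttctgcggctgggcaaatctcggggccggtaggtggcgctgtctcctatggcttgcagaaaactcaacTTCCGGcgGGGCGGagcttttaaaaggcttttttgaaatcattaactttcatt
ITGB5 inner start, chr3:124887356-124887615, minus strand: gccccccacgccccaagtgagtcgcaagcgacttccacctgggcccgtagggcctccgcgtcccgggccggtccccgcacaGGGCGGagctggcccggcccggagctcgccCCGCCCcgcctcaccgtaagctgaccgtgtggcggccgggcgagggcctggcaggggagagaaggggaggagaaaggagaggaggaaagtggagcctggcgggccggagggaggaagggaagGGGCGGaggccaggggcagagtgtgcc
ITGA8, chr10:15719913-15720172, minus strand: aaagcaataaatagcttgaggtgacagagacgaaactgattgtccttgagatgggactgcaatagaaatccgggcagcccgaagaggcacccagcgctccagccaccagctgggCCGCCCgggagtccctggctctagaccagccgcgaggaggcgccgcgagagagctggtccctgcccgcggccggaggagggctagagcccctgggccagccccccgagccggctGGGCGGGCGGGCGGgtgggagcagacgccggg

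The ITGAV and ITGA4 windows held none of these letters. The ITGA5 window held TGAGTCA from 6 bases before the start to the start base itself, GGAATG at 82 to 77 bases before it and 1 GC box. AP-1 letters were present in 3.67% of the 22199 coding start windows of this length, and the TEAD letters in 11.1%. The ITGA8 window held 4 GC boxes, 3 of them overlapping one another, a motif present in 54.3% of windows. The outermost ITGB5 window held 2 GC boxes and 1 ETS core (19.1% of windows), and the inner one 3 GC boxes. Such a match is a description of letters, not of a bound site.

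Base composition varied among the integrin starts, both with and without a summit. Coding start windows with a summit within 1 kb had a median GC content of 65.4% and 22 CpG, and those without had 53.1% and 5. The ITGA8 window, without a summit, had 68.5% GC and 21 CpG. ITGAV had 70.8% and 18 at its accessible start, and 40.8% and 1 at a second annotated start with no summit within 1 kb. ITGA4 had 72.7% and 26, ITGA5 had 69.2% and 13, and the outermost ITGB5 start had 51.5% and 9. ITGA6 has 2 annotated starts that share 1 interval, the first with 51.2% GC and 9 CpG and the second with 71.2% and 31. Its summit lay 19 bases past the second start.

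ITGA5, the fibronectin receptor alpha subunit, had the strongest site of the family. This site, chr12:54411330-54412044, lay 7.67 kb inside the gene from its start, where enrichment reached 15.56 and pileup 2740. It exceeded 98.1% of all summits in enrichment. At the start itself (chr12:54418987-54419550, the window printed above with TGAGTCA) the summit lay 44 bases upstream and reached 4.11 (3.58 to 4.70) with a pileup of 213. The inner site was thus 3.78 times as enriched as the start, and the counting intervals were far apart. Upstream of the gene, summits 4.10 and 9.52 kb from the start had enrichments of 5.74 and 10.81, and another 4.24 kb inside the far end had 6.58. The remaining 4 summits had enrichments of 1.50 to 2.44. With 3 summits inside the gene and 6 in its flanks, ITGA5 held 20.45 summits per 100 kb of gene and flank, a density higher than in 95.4% of coding genes. The long noncoding gene GPR84-AS1 spans the whole of ITGA5, and ATAC-seq does not tell strands apart. An annotated start of GPR84-AS1 also lies within 1 kb of the summit at the ITGA5 start, so that site cannot be given to either gene alone. Of the 9 summits, 4 also lay within 10 kb of ZNF385A, a coding neighbour at the far end.

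ITGAV had the opposite arrangement, with its strongest site at the start. The interval chr2:186589691-186590607 had its summit 34 bases before the start, enrichment 14.74 (13.85 to 15.68) and pileup 1011. It was the highest value at any start or gene end in the family. An end of the noncoding locus LOC124906105 lies within 1 kb of the same summit. A single further summit, 51.87 kb into the gene, had 7.22 and a pileup of 153, with no rise in local background. The gene thus held 1.80 summits per 100 kb, fewer than the coding median of 5.89.

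ITGA4, whose product binds fibronectin and the endothelial adhesion molecule VCAM1 and is typical of leukocytes, had a site at its start and no other. The interval chr2:181457022-181457798 peaked 53 bases before the start, at 10.52 (9.20 to 11.98) and a pileup of 225. A site 4.24 kb inside ITGB3 had a like enrichment, 10.47, with a pileup of 552; the backgrounds were 20.48 at ITGA4 and 51.82 at ITGB3. The remaining 81.7 kb gene carried no summit.

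ITGA8 and ITGA9 are long genes whose products bind matrix ligands such as nephronectin for ITGA8 and tenascin-C and osteopontin for ITGA9. Both were sparsely accessible. ITGA8, known for its role in kidney development, spans 206.0 kb and held 1 summit. That summit lay 92.03 kb inside the gene from the start, with a pileup of 90 and an enrichment of 4.27. The gene thus held 0.44 summits per 100 kb, and 10.6% of coding genes had a lower density. ITGA9 spans 371.4 kb and held 9 summits, or 2.30 per 100 kb. One lay 0.23 kb outside its lower-coordinate end with 4.31 (3.56 to 5.17) and a pileup of 113. The other 8 lay 102.41 to 342.01 kb from that end, with enrichments of 2.11 to 7.88 and pileups of 44 to 183. At 6 of the 9, local background did not exceed the genome-wide one. No other gene end lay within 1 kb of any of the 10 summits in these 2 genes.

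Among the laminin-binding subunits, ITGA3 was the most densely accessible and sat in the highest background. ITGA3 encodes the alpha subunit of a laminin receptor found in many epithelial and mesenchymal cells. The strongest summit by enrichment lay 0.19 kb outside the lower-coordinate end (chr17:50055563-50056885), with 9.29 (8.87 to 9.73) and a pileup of 1780. A summit 6.45 kb inside that end had a slightly lower enrichment of 8.65 (8.27 to 9.05) but a higher pileup, 1908, and the intervals of both measures overlapped. Backgrounds at these sites were 190.65 and 219.71, or 9.38 and 10.81 times the genome-wide value. Within the gene, further sites had enrichments of 4.99 at 8.71 kb and 6.96 at 31.53 kb, and the others ranged from 1.59 to 3.66. Sites 8.42 and 4.85 kb outside the lower-coordinate end had 6.62 and 4.46. With 6 summits inside the gene and 5 in its flanks, it held 20.23 summits per 100 kb, above 95.2% of coding genes. Its end site lies within 1 kb of a start of the noncoding gene PICART1, and 2 summits in the other flank lay within 1 kb of a start of PDK2, a mitochondrial kinase gene.

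ITGA6, the laminin receptor alpha subunit that also pairs with ITGB4 in hemidesmosomes, had 3 strong sites of nearly equal enrichment. The start site (chr2:172427270-172428366) had 11.95 (11.01 to 12.94) and a pileup of 600. A site 14.90 kb into the gene had 12.46 (11.73 to 13.23) and a pileup of 1074. The remaining one, 22.71 kb into the gene, had 11.95 (10.89 to 13.08) and a pileup of 463. Their enrichment intervals overlapped, while their pileups differed by more than the counting error. Background at the 3 sites was 49.31, 85.27 and 37.83. The other 5 summits had enrichments of 1.68 to 6.18, the highest of them within 1 kb of a start of ITGA6-AS1.

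ITGA7, the laminin receptor alpha subunit characteristic of muscle, had weak summits inside the gene and stronger ones beside neighbouring genes. Inside the gene, 3 summits more than 1 kb from an end had enrichments of 1.75, 2.21 and 2.42, and pileups of 53, 68 and 56. At the higher-coordinate end (chr12:55715972-55716550) a summit had 3.78 (3.44 to 4.14) and a pileup of 448 over a raised background of 117.89. A start of BLOC1S1, a lysosome biogenesis gene, lies within 1 kb of that summit, and the site cannot be given to either gene. In the other flank, a summit of 6.65 lay within 1 kb of a start of TMT1B. The highest value in the window, 10.82, lay 4.85 kb outside the higher-coordinate end and within 1 kb of a start of RDH5, a retinol dehydrogenase gene. Without the summits that also lay within 10 kb of another coding gene, the highest enrichment of ITGA7 fell from 10.82 to 2.21 and its count from 7 to 2. At a −log10 q of at least 10 the count was 3.

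The beta subunits ITGB3 and ITGB5, which pair with ITGAV in vitronectin and fibronectin receptors, both had a weak summit at an outer end and their strongest site inside the gene; in ITGB5 a summit near an inner start lay between these, at 7.59. ITGB3 also encodes the beta subunit of the platelet fibrinogen receptor. Its summit 0.11 kb inside the lower-coordinate end reached 3.39 (2.92 to 3.92) with a pileup of 184. The strongest site, chr17:47279083-47279771 at 25.52 kb from that end, had 13.08 (12.28 to 13.91) and a pileup of 1002, and lies within 1 kb of an end of the noncoding locus LOC107985029. Sites at 4.24 and 13.72 kb had enrichments of 10.47 and 11.01. Another in the far flank, 2.02 kb outside the gene, had 9.89 and also lay within 10 kb of the coding gene EFCAB13. The 3 others had 3.11 to 6.36. A wider flank of 20 kb raised the highest value to 15.31.

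ITGB5 had the most summits of the family, more than 98.0% of coding genes, in a gene of 139.5 kb. Its outermost start, the window with 51.5% GC, had a summit 134 bases upstream at 2.44 (1.83 to 3.19) with a pileup of 51. Only 4 of the other ITGB5 summits were weaker. At the inner annotated starts, in the interval chr3:124886283-124887753, a summit 46 bases upstream of the start printed above had 7.59 (6.91 to 8.31) and a pileup of 458. The inner start was therefore the more accessible beyond counting error. The strongest site, chr3:124878557-124879414, lay 22.46 kb inside the gene from the outermost start, with 13.80 (13.01 to 14.62) and a pileup of 1147. Further in, summits at 55.81 and 88.42 kb had 10.22 and 10.07. A pair at 40.63 and 42.23 kb had 8.52 and 7.28. Local background was raised at 17 of the 19 summits.

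In ITGA5 and ITGB3 the strongest summit was 3.78 and 3.85 times as enriched as the strongest near a gene end. In ITGB5 the ratio was 4.87, taken against a summit of 2.83 that lies 0.46 kb outside the 3′ end, but 1.82 once the inner annotated starts were counted with the gene ends, an alternative added after the data were seen. A ratio of at least 3, a limit chosen after the values were seen, was thus reached by 3 of the 9 integrin genes with a summit near an end, against 7.71% of such coding genes, and by 2 with annotated starts included, against 6.94%. For the 9 integrin genes with a summit near an end, the highest value there had a median of 4.31, against 11.73 for coding genes, and 7 of the 9 were below it. Both medians use gene ends alone, and the ITGB5 value among the 9 is the 2.83 near its 3′ end. With annotated starts counted, the ITGB5 value was 7.59 and became the integrin median, in place of 4.31. The coding median with ends and starts together is not given here. These are descriptions of chosen genes, with no test of the list. The shares of coding genes given here were not matched for number of summits or gene length. The median number of summits was 8 in the integrin genes and 3 in coding genes.

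**Figure D3:**
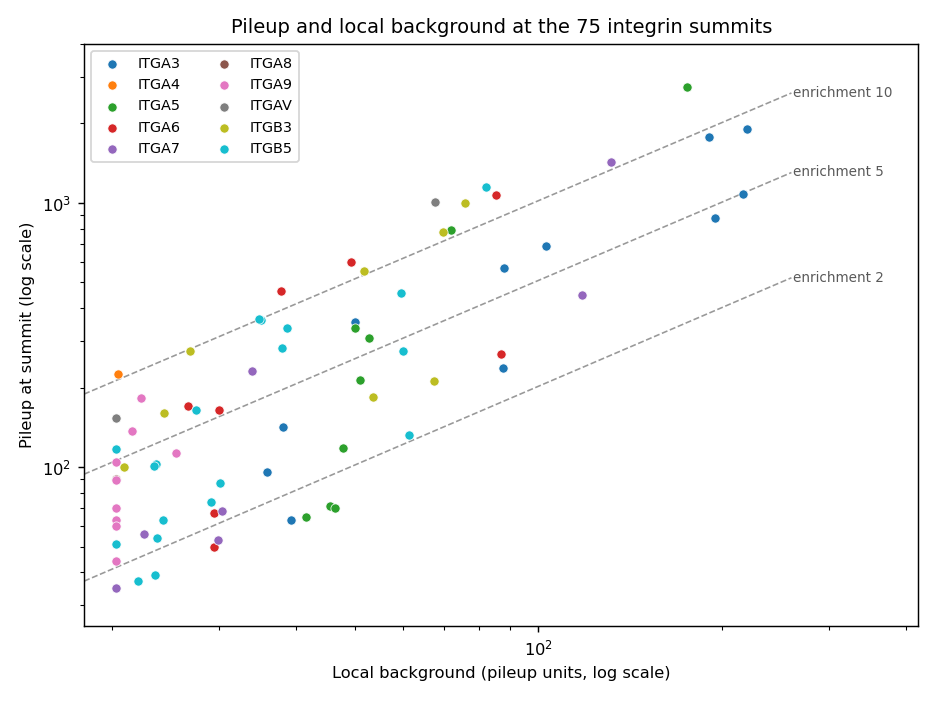
Each of the 75 summits is plotted by its local background (horizontal, log scale) and pileup (vertical, log scale), coloured by gene, with dashed lines at enrichments of 2, 5 and 10. ITGA3 summits reach the highest backgrounds, up to 219.71, while ITGA9 summits lie near the genome-wide value of 20.32.

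Local background varied among the genes. A background above the genome-wide value was present at 64 of the 75 summits (85.3%), compared with 64.7% of summits in intervals of at most 10 kb. Pileups at integrin summits ranged from 35, at a flank site of ITGA7, to 2740 in ITGA5, with a median of 165. The intervals were 253 to 2008 bp long, with a median over summits of 515 bp. In 9 of the 10 genes the same summit was strongest by both measures, and ITGA3 was the exception. ITGA4 and ITGA8 had only 1 summit each, so agreement was fixed for them. The like share over coding genes is not given here. What raised the local background was not tested.

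The number of sites was also set against length. Per 100 kb of gene and flank, the median of the 10 genes was 9.04 and that of coding genes 5.89, and 6 of the 10 lay above the coding median. ITGA7 had 13.50, ITGB5 11.91, ITGB3 10.01 and ITGA6 8.07.

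**Figure D4:**
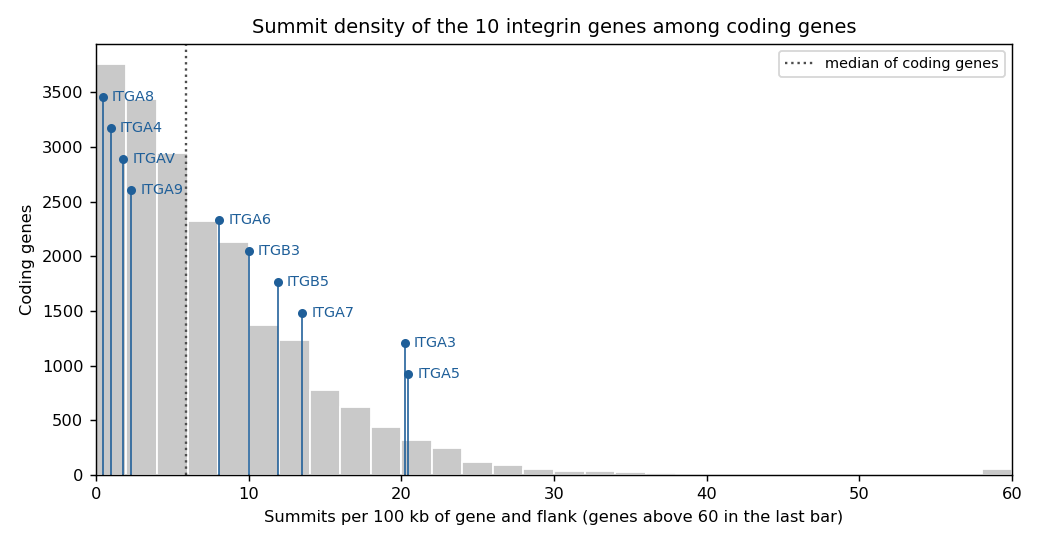
Bars count coding genes by summits per 100 kb of gene and 10 kb flanks (horizontal axis), and blue stems mark the 10 integrin genes at their own densities, with stem height only separating the labels. ITGA5 (20.45) and ITGA3 (20.23) stand to the right, ITGA8 (0.44) and ITGA4 (0.98) at the left edge, and the dotted line is the coding median of 5.89.

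The other integrin subunits, the ligands and the adhesion complex were described in the same way, but their summits were not checked for other genes nearby. Of 16 other integrin subunits, 8 had a summit within 1 kb of a gene end, and the median of the highest enrichment anywhere was 11.37. ITGB1, the beta subunit that pairs with ITGA3 to ITGA9, had 12.32 at an end, with a pileup of 2138. ITGA10, a collagen receptor subunit, and ITGB2 had the highest values, 17.36 and 16.92. The 8 without a summit there were ITGA2B, ITGAD, ITGAE, ITGAL, ITGAM, ITGB4, ITGB6 and ITGB7; all 8 had summits elsewhere in the gene or flanks. The leukocyte subunits ITGAX and ITGB2 did have one near an end, ITGAX with 6.03. ITGB4 and ITGB6, partners of ITGA6 and ITGAV in epithelial cells, reached 7.39 and 11.46 away from their ends.

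Among 14 fibronectin and laminin ligand genes, 9 had a summit within 1 kb of a gene end. FN1, fibronectin itself, had 15.10 with a pileup of 1216 at an end. VTN, the vitronectin gene, had the highest value in this list anywhere in the window, 17.10, but 1.74 at an end. Whether the VTN summit of 17.10 lies at a neighbouring gene was not checked. LAMA1, a laminin alpha chain, was next with 16.51. SPP1 (osteopontin), LAMA2, LAMA3, LAMA5 and LAMB4 had no summit near an end. The laminin chains LAMC1 and LAMB2 had 10.60 and 11.52 at an end. In the other 6 genes with a summit near an end the highest value there was 1.74 (VTN) to 3.79 (LAMC3), with LAMA1, LAMA4, LAMB1 and LAMB3 between them. The median over the 9 genes was 3.75, beside 4.31 for the integrin members, both at gene ends without annotated starts. With annotated starts counted, the integrin median was 7.59. In the adhesion complex, 12 of 15 genes had a summit near an end. LIMS1, the adaptor known as PINCH, had 17.28, and ZYX, encoding zyxin, had 15.38. The actin linkers VCL and TLN1 had 14.49 and 12.63 with pileups of 3009 and 4621. FERMT3, the kindlin of blood cells, PARVA and SRC had no summit near an end.

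**Figure D5:**
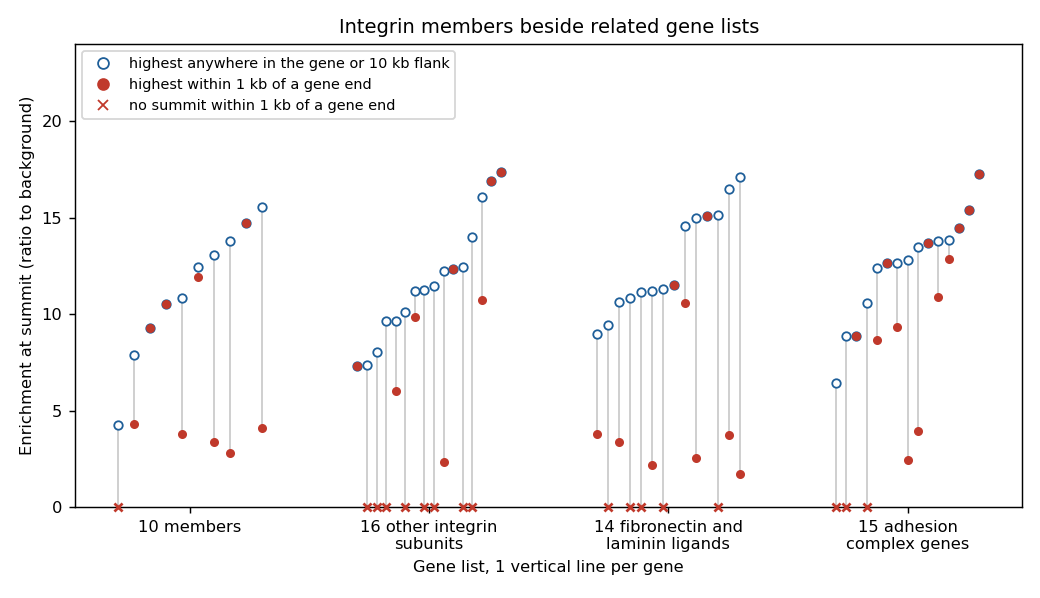
Each vertical line is 1 gene of the list named on the horizontal axis, with the highest enrichment anywhere in the gene or flanks (open circle) and within 1 kb of a gene end (red point; a cross at 0 means no summit there). Medians of the highest value anywhere were 11.64 in the 10 members, 11.37 in other subunits, 11.42 in ligands and 12.81 in the adhesion complex, and 1, 8, 5 and 3 genes carry a cross.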

How the data were processed

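The data are 1 peak list for all 12 ATAC-seq libraries, with 10 columns and no library name. Per the submitters' processing notes, fastp 0.20.0, Bowtie2 2.4.3, SAMtools, deepTools 3.5.0 and MACS2 2.2.7.1 were used with build hg38; the settings, the treatment of duplicates and the depth per library are not given in the sources used here. The deposited values were read in the standard column order: a score, an enrichment ratio, the −log10 p-value and −log10 q-value, and the summit offset. The lowest −log10 q in the authors' deposited table was 1.30. Pileup and background were solved from enrichment = (pileup + 1)/(background + 1) and a Poisson upper tail, a model no source states. It gave whole pileups, within 0.05, in 99.96% of lines. The solving was tested on data simulated from the same model, which cannot test the model itself. Genes came from RefSeq GRCh38.p14, whose table gives no strand; starts came from its promoter table. Exon boundaries were not used here. Genes were named by a fixed list and rule: all 10 members, and in related lists those without a summit near an end and the strongest, with a few others chosen for their role after their values were seen. The members and lists were chosen with earlier results of these data known. One gene of the ligand list is not reported here. No test between concentrations was run, since the list holds no value per library, so the list held other content than the planned count tests assumed. Python 3.11.15, SciPy 1.17.1 and pandas 2.3.3 were used. Alternatives were a −log10 q of at least 10, 1 summit per interval, other flanks and windows, interval overlap, ranking by pileup and, added after seeing the data, leaving out summits shared with another coding gene.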

Additional observations from a re-analysis of the deposited data

How the results depend on the processing

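No paired analysis was possible because the list carries no value per library; the planned fits that leave out a replicate or use another count model were not run for the same reason. The count of members with a summit near a start (5) or near a gene end (9) was the same at a −log10 q of at least 10, with 1 summit per interval and with windows of 500 and 2500 bp. At a −log10 q of at least 10 the summit at the outermost ITGB5 start was lost, while that at its inner start passed. The 75 integrin summits ranged from 54 with no flank to 94 with a flank of 20 kb. The median highest enrichment of 11.64 fell to 9.59 with no flank, where the summits just outside ITGAV and ITGA3 and the RDH5 site beside ITGA7 are left out, and was 11.49 to 11.64 otherwise. Summits per 100 kb, 9.04, dropped to 5.92 at a −log10 q of at least 10, when the coding median was 4.13. The share of coding genes with a summit near a start, 67.7%, was 63.0% at that threshold, 66.8% with 1 summit per interval, and 64.0% and 73.0% with windows of 500 and 2500 bp. The number of genes with the strongest summit near an end, 3, was 2 with no flank or when ranked by pileup. Counting annotated starts with the gene ends lowered the number of genes with a ratio of at least 3 from 3 to 2. Pooled depth limits how weak a site can be called: the lowest pileup at an integrin summit was 35.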
